A study of Mus musculus with 16 samples.

Results

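A group of 10 long noncoding RNAs of the mouse hippocampus, Malat1, Neat1, Miat, Meg3, Rian, Mirg, Kcnq1ot1, Snhg14, Snhg11 and Tug1, were followed over 16 Affymetrix Mouse Genome 430 2.0 arrays. They were chosen from measured values, because most of them differed between the cohorts of arrays in the study, so that cohort difference is given as a description with no test. All their probe sets were taken by the symbol of the platform annotation and each was read on its own: 42 probe sets of 10 genes, of 45037 probe sets and 18193 genes with a single symbol on the array. Malat1 has 7 probe sets, Neat1 2, Miat 2, Meg3 11, Rian 4, Mirg 2, Kcnq1ot1 6, Snhg14 3, Snhg11 2 and Tug1 3. Of the 42, 39 passed the filter on low values and were tested, and the 3 others (Kcnq1ot1 1441588_at and 1459443_at, Snhg14 1445296_at) are given by value only. A probe set could pass through 1 cohort alone. Kcnq1ot1 1446255_at and 1442029_at, Miat 1458903_at and Rian 1440001_at are examples.

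Every array held hippocampal RNA pooled from 3 to 4 mice, so that a replicate is a pool and p-values measure the spread between pools. VP16-CREB is a constitutively active form of the transcription factor CREB, and A-CREB a dominant negative form that blocks it. Bitransgenic mice of the tetO-VP16-CREB line (C57BL/6J) had been raised with doxycycline (dox), which keeps the transgene off. They were taken 3 weeks after dox removal at an age of 6 weeks (3 pools, with 3 of wild-type littermates) or 1 week after it at 3 weeks of age (2 pools, with 2 of littermates), and the littermates had the same dox schedule. Bitransgenic A-CREB mice (TetO-A-CREB-95, C57BL6 F1/J) and their wild-type littermates were raised without dox and taken at 6 weeks (3 pools each). The line that drives the transgenes is not named in the sources used here, and the early A-CREB arrays were not analysed here. Cohort below means a transgenic group with its littermates. The 3 week VP16-CREB and A-CREB cohorts share their age and differ in mouse line and dox schedule, and the VP16-CREB cohorts share their line and differ in age and time off dox. Within each pair of cohorts these differences and the handling of the arrays cannot be told apart.

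Long noncoding RNAs are transcripts that are not translated, and many stay in the nucleus. Malat1 lies in nuclear speckles, stores of splicing factors, and Neat1 is the scaffold of paraspeckles, which form around it with proteins such as SFPQ and NONO. Meg3, Rian and Mirg are transcribed from the maternal copy of the imprinted Dlk1-Dio3 locus, whereas Kcnq1ot1 and Snhg14 come from the paternal copy of theirs and run antisense to Kcnq1 and Ube3a. The strand that each probe set reads is not given in the sources used here, so a signal at Kcnq1ot1 or Snhg14 cannot be assigned to 1 strand, and probe sets ending in _s_at or _x_at may share probes with other sequences.

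CREB binds the cAMP response element (CRE), TGACGTCA, or its core TGACG. Both were searched on both strands of RefSeq promoter windows (build GRCm38.p6), which run from 250 bases before a gene's start to 50 after it, 300 bases in all. The RefSeq table held 10 windows for 9 of the 10 genes, and none for Neat1. The full CRE was in 1 window (1.79% of 32851 promoters held it) and the core in 3 (20.8% of promoters), where a full CRE also counts as a core on each strand. These 3 windows are printed, with the matches in capitals, because the transgenes change the activity of CREB, which binds this motif.

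Malat1 promoter, chr19:5802623-5802922, minus strand: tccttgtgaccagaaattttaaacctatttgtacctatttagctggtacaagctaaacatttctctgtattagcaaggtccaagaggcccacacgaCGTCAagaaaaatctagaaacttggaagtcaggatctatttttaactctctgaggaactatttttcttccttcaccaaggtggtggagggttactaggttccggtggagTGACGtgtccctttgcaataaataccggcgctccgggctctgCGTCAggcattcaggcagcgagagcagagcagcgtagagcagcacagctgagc
Meg3 promoter, chr12:109540746-109541045, plus strand: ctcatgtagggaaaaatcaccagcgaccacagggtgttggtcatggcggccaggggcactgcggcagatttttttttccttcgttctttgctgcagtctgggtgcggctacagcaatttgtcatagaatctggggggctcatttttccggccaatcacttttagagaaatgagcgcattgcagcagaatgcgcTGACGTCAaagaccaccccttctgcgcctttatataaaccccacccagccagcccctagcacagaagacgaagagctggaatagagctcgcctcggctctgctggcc
Kcnq1ot1 promoter, chr7:143296498-143296797, minus strand: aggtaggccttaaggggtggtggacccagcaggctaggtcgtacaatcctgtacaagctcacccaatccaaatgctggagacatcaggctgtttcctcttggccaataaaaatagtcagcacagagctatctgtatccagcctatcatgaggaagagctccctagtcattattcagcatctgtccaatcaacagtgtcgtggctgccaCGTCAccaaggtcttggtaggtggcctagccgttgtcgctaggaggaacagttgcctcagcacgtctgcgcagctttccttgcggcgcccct

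The Malat1 window holds 3 cores, at 154, 45 and 3 bases before the start. That of Meg3 holds the full CRE, at 57 bases before the start and read from the other strand at 54. Kcnq1ot1 has 1 core, at 42 bases before it. Both strands of the core are shown, so a match reads TGACG or CGTCA. A match describes letters and shows no binding.

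The genes lie on 6 chromosomes of that build. Malat1 (chr19:5795690-5802672) and Neat1 (chr19:5824708-5845480) are neighbours, as are Meg3 (chr12:109540996-109571729), Rian (chr12:109603945-109661716) and Mirg (chr12:109734981-109749458). Kcnq1ot1 (chr7:143213111-143296547) and Snhg14 (chr7:59272737-60450177) share a chromosome. Miat lies at chr5:112213228-112228948, Snhg11 at chr2:158375713-158386474 and Tug1 at chr11:3639785-3648814. RefSeq places the Mir770 hairpin inside Meg3, 3 hairpins inside Rian (Mir341, Mir1188 and Mir370) and 10 inside Mirg, among them Mir154, Mir377, Mir409 and Mir410. The mature miR-1906 (Mir1906-1) also lies inside Meg3. The mature microRNAs were not measured.

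All values are linear intensities that the authors computed with MAS5, scaled so that the trimmed mean of every array is 500. The median intensity still ran from 118.9 to 129.3 in the 3 week VP16-CREB cohort and from 74.99 to 93.23 on the other 10 arrays. Correlations of the log2 of intensity plus 10 over the tested probe sets were 0.885 to 0.933 between that cohort and the others. They were 0.942 to 0.98 among the remaining pairs of arrays of different groups. All 5 neuron markers were at 5007 or more on every array. For actin, the ratio of 3' to 5' signal (higher where RNA is degraded) ranged over 1.36 to 1.61 at 3 weeks, 1.4 to 2 at 1 week and 1.37 to 2.48 with A-CREB. The 18S rRNA signal was highest on A-CREB replicate 3 of both groups, with 1735 in controls and 3288 in transgenic mice, against 171.3 to 937.2 elsewhere.

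The 10 RNAs were mostly far higher in the 3 week VP16-CREB cohort than in the others, in littermates and transgenic mice alike. Among control littermates, 33 of the 42 probe sets (32 of the 39 tested) were at least 2-fold higher there than in the A-CREB cohort and none was 2-fold lower, where 12.3% of all 27044 tested probe sets were 2-fold higher and 1.21% lower. Against the 1 week controls, 32 of 42 (31 of 39 tested) were 2-fold higher and none lower, with 13.3% and 1.87% of all probe sets. The median log2 difference of the tested members was 2.64 and 2.56, against 0.05 and 0.07 over all tested probe sets. These differences chose the genes, so nothing is read from the counts. The filter value, 99.1, lay between the median intensities of the 3 week cohort and those of the other arrays. Probe sets high in that cohort alone could therefore pass, which also shapes the shares of all tested probe sets. The A-CREB and 1 week controls differed less: 4 of 42 probe sets, 3 of Malat1 and 1 of Rian, were 2-fold higher in A-CREB controls (1.38% of all), none was 2-fold lower (0.595% of all), and the median was -0.10.

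**Figure D1:**
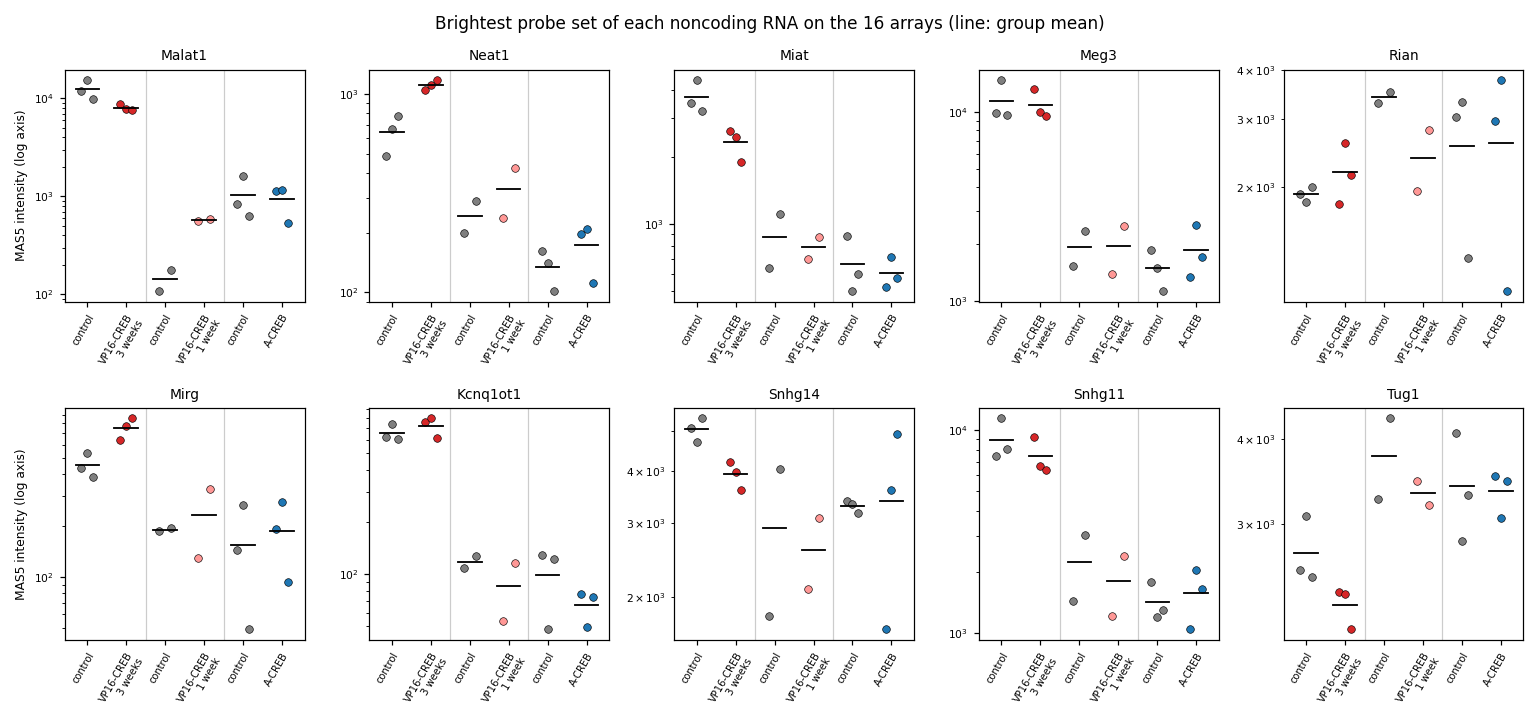
Intensity (log axis) of the probe set with the highest mean of each RNA on the 16 arrays, grouped by cohort as control littermates and transgenic mice. Points are pools and lines group means. In 7 panels the 3 week cohort lies above every other array, and Rian, Snhg14 and Tug1 are the exceptions.

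The cohort offset was present in the transgenic arrays as well. Of the 42 probe sets, 32 were 2-fold higher in VP16-CREB mice at 3 weeks than in A-CREB mice. Against VP16-CREB mice at 1 week, 32 were 2-fold higher as well. The medians over the tested members were 2.59 and 2.47, against 0.104 and 0.096 over all tested probe sets. The share of all probe sets at 2-fold was not counted for these pairs, and nothing is read from the counts.

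Of the speckle and paraspeckle RNAs, Malat1 had the widest range. Its brightest probe set, 1438403_s_at, read 11855, 15300 and 9888 in the 3 week controls and 8711, 7777 and 7568 in the VP16-CREB pools of that cohort. At 1 week it read 108 and 177 in controls and 564 and 586 in VP16-CREB pools. In the A-CREB cohort it read 844, 1598 and 632 in controls and 1121, 1152 and 529 in transgenic pools. The 6 pools of the 3 week cohort lay above all others, and both 1 week controls lay below every other array. All 7 Malat1 probe sets were 2-fold higher in the 3 week controls, by 1.87 to 4.72 log2 against A-CREB controls (3.64-fold to 26.4-fold) and by 2.39 to 6.46 log2 against 1 week controls. The largest member difference in that comparison was that of Malat1 1418189_s_at, 88.2-fold, with 6709, 8342 and 5879 against 22.4 and 179. In the other groups that set read 5024, 5054 and 5630 (VP16-CREB, 3 weeks), 210 and 312 (VP16-CREB, 1 week), 295, 408 and 131 (A-CREB controls) and 160, 472 and 450 (A-CREB). The pseudocount of 10 weighs on the lowest of these values.

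Neat1 1428083_at read 489, 666 and 778 in 3 week controls and 1054, 1107 and 1176 in VP16-CREB pools. The 1 week cohort gave 199 and 289 in controls and 237 and 425 in VP16-CREB pools. The A-CREB cohort gave 162, 142 and 102 in controls and 196, 210 and 112 in transgenic pools. All 6 pools of the 3 week cohort were above the others, and within it the VP16-CREB pools were above the controls. The log2 difference between controls was 2.17 against the A-CREB cohort and 1.36 against 1 week. The other Neat1 probe set, 1442881_at, lay between 37.9 and 122 on all 16 arrays and differed by 0.39 and 0.02.

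Miat, a nuclear RNA of neurons, heart and retina, followed the same order. Its probe set 1455325_at read 3495, 4440 and 3217 in 3 week controls and 2634, 2455 and 1906 in VP16-CREB pools. At 1 week it read 633 and 1111 in controls and 699 and 880 in VP16-CREB pools. A-CREB controls read 890, 500 and 597 and A-CREB pools 525, 712 and 571. The 3 week cohort was separate from the rest, and the control groups differed by 2.50 log2 (A-CREB) and 2.12 log2 (1 week). The dim set 1458903_at differed by 2.22 and 1.73.

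The imprinted RNAs of the Dlk1-Dio3 locus differed among themselves. For Meg3 all 11 probe sets were higher in the 3 week controls, by 2.63 to 3.78 log2 against A-CREB controls (median 9.09-fold) and by 2.28 to 4.26 log2 against 1 week controls. Its brightest set, 1439380_x_at, read 9931, 14741 and 9646 in 3 week controls and 13210, 10018 and 9539 in VP16-CREB pools. It read 1531 and 2333 in 1 week controls, 1390 and 2484 in 1 week VP16-CREB pools, 1862, 1484 and 1123 in A-CREB controls and 1341, 2503 and 1704 in A-CREB pools. The cohort of 3 weeks did not overlap the others, and control and transgenic pools overlapped in all 3 cohorts.

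Rian, a host of small nucleolar RNAs and microRNAs, split by probe set. The sets 1428055_at and 1440001_at were higher in the 3 week controls, by 2.09 and 3.20 log2 against A-CREB controls and by 3.13 and 3.21 against 1 week controls. The 2 brightest sets were not: 1452899_at differed by -0.30 and -0.83 and 1427580_a_at by 0.60 and -0.05. The set 1452899_at read 1924, 1828 and 2002 in 3 week controls against 3295 and 3525 in 1 week controls and 3035, 3316 and 1315 in A-CREB controls. Its transgenic pools read 1808, 2607 and 2156 at 3 weeks, 1955 and 2806 at 1 week and 2957, 3774 and 1080 for A-CREB. The lowest arrays were replicate 3 of both A-CREB groups, the ones of highest 18S signal, which were also lowest for 1427580_a_at (500 and 534) and for Tug1 1456398_at (632 and 895). They were lowest for Mirg 1457030_at and Neat1 1428083_at as well. Without the control array of the pair, the difference from A-CREB controls was -0.72 instead of -0.30 for 1452899_at and -0.04 instead of 0.60 for 1427580_a_at. Without A-CREB control replicate 2 that of 1427580_a_at was 1.01. The part of the 18S signal in this was not tested.

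Mirg, the microRNA host of that locus, was higher in 3 week controls by 1.76 and 1.97 log2 against A-CREB controls and by 1.21 and 1.87 against 1 week controls. Its set 1457030_at read 439, 537 and 385 in 3 week controls and 638, 767 and 855 in VP16-CREB pools. The other control pools read 185 and 193 at 1 week and 145, 265 and 49.1 in the A-CREB cohort. Transgenic pools read 130 and 330 at 1 week and 192, 274 and 93.7 for A-CREB. All pools of the 3 week cohort were above the rest.

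**Figure D2:**
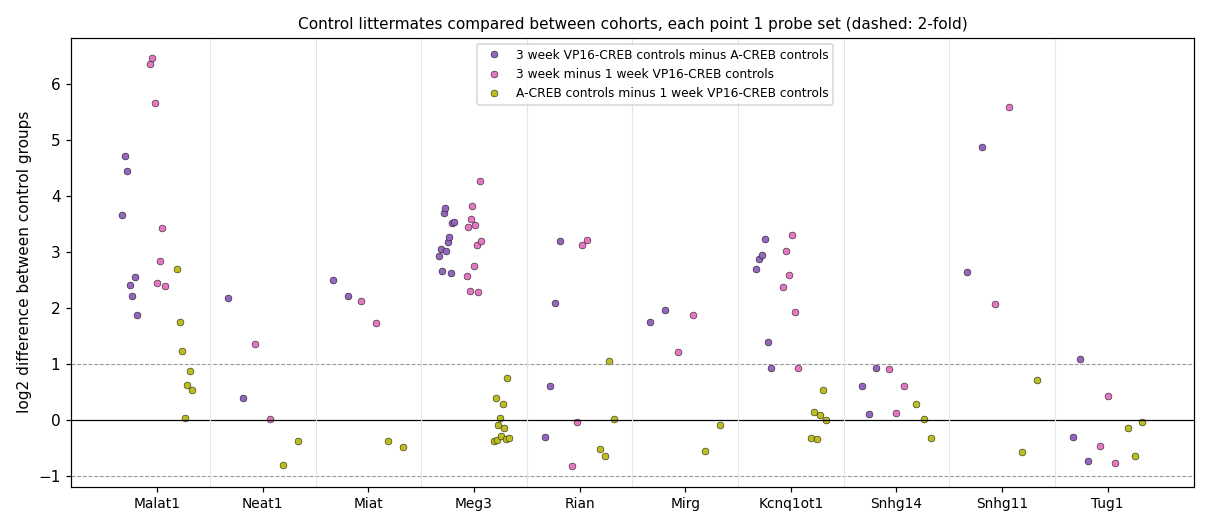
Log2 difference between control littermates of 2 cohorts for each of the 42 probe sets, by gene. Points are probe sets, dashed lines mark 2-fold, and the 3 colours are the 3 pairs of cohorts. Malat1 and Meg3 lie above 2-fold with all their probe sets in both comparisons with the 3 week cohort, Snhg14 with none.

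Of the antisense imprinted RNAs, Kcnq1ot1, which silences its neighbours on the paternal copy, was higher in the 3 week cohort and Snhg14 was not by 2-fold. For Kcnq1ot1, 5 of 6 probe sets were 2-fold higher in 3 week controls, by a median of 2.79 log2 over all 6 against A-CREB controls and 2.48 against 1 week controls. Its set 1458161_at read 623, 741 and 606 in 3 week controls and 756, 797 and 614 in VP16-CREB pools. It read 109 and 128 in 1 week controls, 53.8 and 116 in 1 week VP16-CREB pools, 129, 48.1 and 122 in A-CREB controls and 76.6, 49.6 and 73.7 in A-CREB pools. The other cohorts were near the median intensity of their arrays. The 3 Snhg14 probe sets differed by 0.10 to 0.93 log2 against A-CREB controls and by 0.13 to 0.90 against 1 week controls. Snhg14 1436964_at read 5091, 4701 and 5363 in 3 week controls, 1796 and 4049 in 1 week controls and 3388, 3346 and 3172 in A-CREB controls. Its transgenic pools read 4212, 3997 and 3613 at 3 weeks, 2091 and 3098 at 1 week and 1670, 3611 and 4929 for A-CREB, so that the cohorts overlapped. The lack of a 2-fold difference rested on single pools: without the second 1 week control 1436964_at differed by 1.49 from that group, and without the second 3 week control the dim set 1445296_at differed by 1.33 from A-CREB controls. It also differed by 1.31 from A-CREB controls without their replicate 2, and by 1.01 from 1 week controls without the second 3 week control. The set 1455087_at changed sign with single arrays left out. Of Kcnq1ot1, the near-dark set 1459443_at (0.93 in both) passed 2-fold without 3 week control replicate 1 (1.11 in both) or 3 (1.38 in both), and against A-CREB controls without their replicate 3 (1.01).

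Snhg11, a host of small nucleolar RNAs that is abundant in neurons, had the largest difference of any member probe set from A-CREB controls. Its set 1437311_at read 4924, 5392 and 4454 in 3 week controls and 3449, 3558 and 3412 in VP16-CREB pools. It read 76.9 and 110 in 1 week controls and 86.1 and 108 in VP16-CREB pools of that cohort. A-CREB controls read 187, 173 and 119 and A-CREB pools 165, 196 and 124. The lowest pool of the 3 week cohort was thus far above the highest of the others, and the control differences were 4.88 log2 (29.5-fold, A-CREB) and 5.59 log2 (48.2-fold, 1 week). The brighter set 1434292_at differed by 2.64 and 2.07, with 7502, 11423 and 8061 in 3 week controls, 1447 and 3051 in 1 week controls and 1796, 1202 and 1302 in A-CREB controls. Its transgenic pools read 9297, 6682 and 6377 at 3 weeks, 1215 and 2408 at 1 week and 1046, 2041 and 1644 for A-CREB. Both sets kept the 3 week cohort apart.

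Tug1, which is found in nucleus and cytoplasm, ran the other way at 2 of its 3 probe sets. The set 1415708_at read 2566, 3079 and 2507 in 3 week controls and 2382, 2364 and 2099 in VP16-CREB pools. It read 3266 and 4283 in 1 week controls, 3470 and 3198 in 1 week VP16-CREB pools, 4077, 2830 and 3311 in A-CREB controls and 3525, 3055 and 3465 in A-CREB pools. The 3 week cohort was lower, with 1 pool that overlapped the others. The control differences were -0.31 and -0.47 for this set, and -0.73 and -0.77 for 1426771_at, the lowest of any member probe set against A-CREB controls, with 292, 234 and 353 against 494, 383 and 608 (A-CREB) and 470 and 531 (1 week). Its transgenic pools read 218, 289 and 279 at 3 weeks, 448 and 505 at 1 week and 456, 479 and 567 for A-CREB, so the 3 week cohort was below all others. The set 1456398_at differed by 1.08 and 0.43, and by 0.61 from A-CREB controls without their replicate 3, which is under 2-fold.

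**Figure D3:**
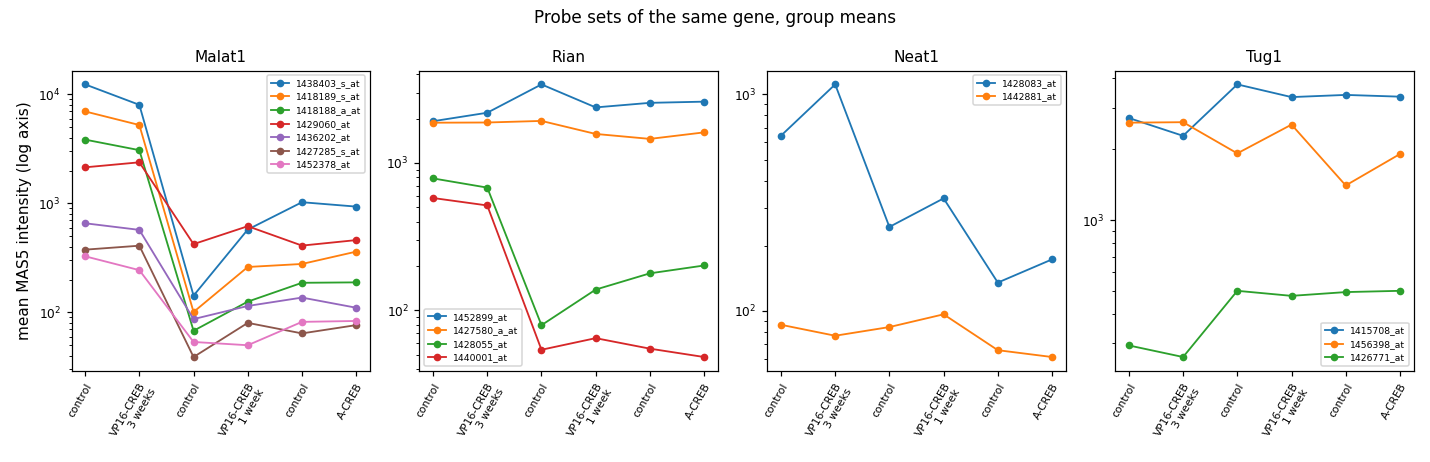
Mean intensity (log axis) of every probe set of Malat1, Rian, Neat1 and Tug1 in the 6 groups, in cohort order. Each line is 1 probe set. All 7 Malat1 sets are highest in the 3 week cohort, whereas 2 of 4 Rian sets and 1 of 2 Neat1 sets show no such step, and 2 of 3 Tug1 sets are lower there than in the controls of the other cohorts.

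The signs depended on the scaling at few probe sets. With arrays centred on their median, the control difference of all tested probe sets shifted by -0.53 (A-CREB) and -0.54 (1 week), 31 and 30 of the 42 members were 2-fold higher, and 1 and 3 were 2-fold lower. The sign changed for Neat1 1442881_at and Snhg14 1455087_at in both comparisons, and for Tug1 1456398_at against 1 week controls. With quantile normalization the same Neat1 and Snhg14 sets changed sign, and Rian 1427580_a_at against 1 week controls, and 32 of 42 stayed 2-fold higher in each comparison.

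A list of other long noncoding RNAs was read in the same way. Of 35 with a tested probe set, 7 were 2-fold higher in 3 week controls than in A-CREB controls, against 12.3% of all tested probe sets. None was 2-fold lower (1.21% of all), and the median was 0.43 log2. Against 1 week controls 6 were higher (13.3% of all) and none lower (1.87% of all), with a median of 0.45. The microRNA host Mir124a-1hg was 3.06 and 2.69 log2 higher. The X-linked Ftx was higher by 2.87 and 1.91 and Firre by 1.74 and 1.57. Lncpint was higher by 3.07 and 2.09 at low intensity (75.4 to 121 against 1.02 to 36.5). Snhg7 differed by 1.26 and 1.16, Dancr by 1.21 against A-CREB controls and Airn by 1.65 against 1 week controls. Xist, by which the inactive X chromosome is silenced, is 1 of the 7. It differed by 2.65 against A-CREB controls, where 1 pool read 34.5 and the others 3611 and 4097, so that its difference rested on that pool. The A-CREB transgenic pool of the same number read 63.4, and every other array 3611 or more. The pools may thus differ in sex, which was not part of the model. Gas5 (5215 to 11370 over all control arrays) and Norad (14810 to 25080), the brightest of this list, overlapped between the cohorts.

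The lists of proteins had medians near 0. Of 14 paraspeckle proteins tested, 1 was 2-fold higher in 3 week controls (Taf15, 2.52 log2 against A-CREB and 2.04 against 1 week controls) and 1 lower (Rbm14, -1.28 and -1.43), with list medians of -0.21 and -0.05. Of 25 speckle proteins and SR splicing factors, Pnn (1.15 and 1.33) and Celf3 (1.52 and 1.08) were 2-fold higher in both comparisons, Srrm2 (1.13) against 1 week controls alone, and none was lower. Their medians were 0.08 and 0.05. Of 11 tested imprinted neighbours of the members, none was 2-fold higher. Cdkn1c, a cell cycle inhibitor in the domain that Kcnq1ot1 silences, was lower by 1.40 and 1.63 log2. It read 67.0, 96.5 and 145 in 3 week controls and 163, 363 and 355 in A-CREB controls. The other tested neighbours of Kcnq1ot1 differed less from A-CREB controls: Nap1l4 by -0.17, Tssc4 by 0.20, Cd81 by -0.19 and Tspan32 by -0.42. The part of Kcnq1ot1 in these values was not tested. Dlk1 was 2-fold lower against 1 week controls (-1.15).

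**Figure D4:**
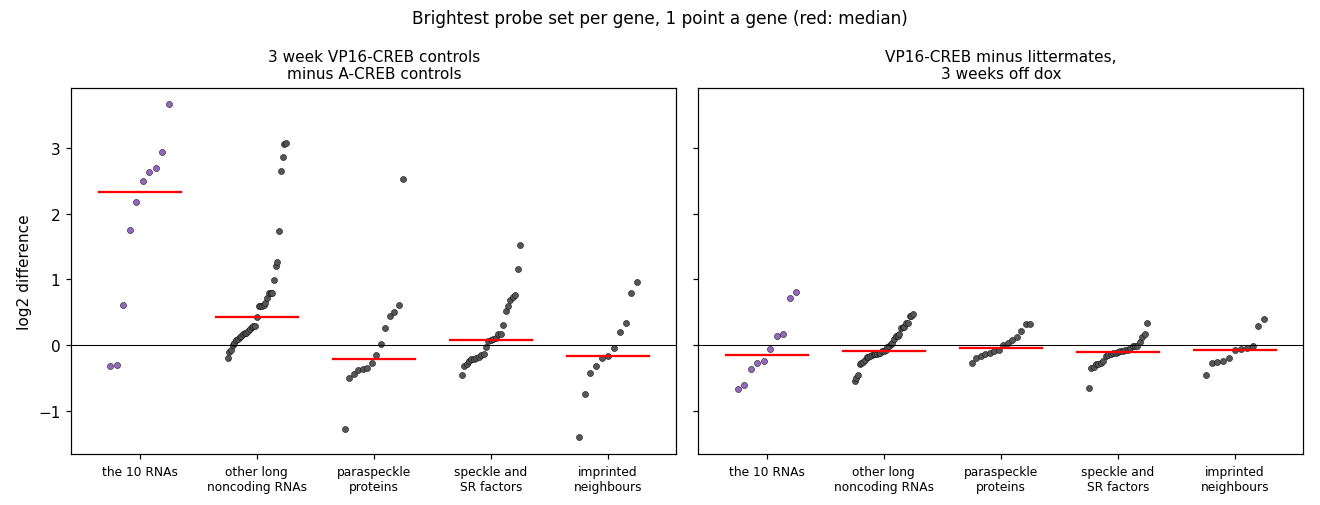
Log2 difference of the brightest probe set per gene for the 10 RNAs and the 4 gene lists (1 point a gene, red lines at medians), between control littermates of the 3 week VP16-CREB and A-CREB cohorts (left) and between VP16-CREB mice and littermates at 3 weeks (right). On the left 7 of the 10 RNAs lie above 1, and on the right all lie between -1 and 1.

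Cell type markers were read for the same control comparison. In whole hippocampus, fewer cells of a type and less RNA per cell cannot be told apart. Of the 9 marker lists, choroid plexus stood apart: 4 of 5 markers were 2-fold lower in 3 week controls in both comparisons (medians -1.80 and -2.60), with summed levels of 15160 to 37220 against 31080 to 43590 in A-CREB controls and 34230 to 42390 in 1 week controls. Its lowest marker was at 85.3 or more in these 3 week controls. Markers of neurons, pyramidal cells, interneurons, microglia, astrocytes, oligodendrocytes and endothelium had no member 2-fold apart, and 1 of 6 dentate granule markers was lower against 1 week controls. The part of choroid plexus RNA, of median intensity or of RNA integrity in the offset was not tested.

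The probe sets most like the members, by the root mean square difference from the median of their brightest probe sets' centred log2 profiles over the 16 arrays, were of Abce1 (1442071_at), Arhgef12 (1446965_at), Pabpn1 (1415728_at), Fcho2 (1442453_at) and Frmpd3 (1446506_at), at 0.24 to 0.26. The members' own distances ran from 0.32 for Snhg11 and Miat to 1.40 for Malat1. Abce1 encodes a factor of ribosome recycling and Pabpn1 the nuclear poly(A)-binding protein, both protein-coding. Other probe sets of these genes differed: Abce1 1442071_at was 1.90 log2 higher in 3 week than in A-CREB controls, and its 2 brighter sets 0.03 and 0.04. For Arhgef12, 1446965_at differed by 1.88 and the brighter sets by -0.24 and -0.56. For Pabpn1 the 4 sets differed by 0.54 to 2.48 and for Fcho2 by 0.51 and 2.15. In Abce1, Arhgef12, Pabpn1 and Fcho2 the set with the largest difference was dimmer than another set of the gene. Outside the 3 week cohort, Abce1 1442071_at, Arhgef12 1446965_at and Frmpd3 1446506_at had group means under the filter value of 99.1.

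Transgenic mice were then compared with littermates inside each cohort, so that cohorts are not mixed. No member probe set passed an adjusted p of 0.05 in any of the 3 comparisons. At 3 weeks 0 of 39 were called, where 3.93% of all tested probe sets were, and at 1 week 0 of 39, against 0.237% of all. A-CREB gave 0 of 39, and 0% of all probe sets were called. An unadjusted p under 0.05 was found for 3 of 39 at 3 weeks (13.5% of all probe sets), 3 at 1 week (5.27% of all) and none for A-CREB (4.33% of all). The medians over the tested members were -0.10, 0.11 and 0.04 log2, against -0.01, 0.02 and 0.003 over all probe sets. Pools of VP16-CREB and control mice did not overlap for 12 of the 39 at 3 weeks (4 higher and 8 lower), against 27.6% of all probe sets, and for 7 at 1 week (6 higher, 1 lower), against 28.6%. None of the 39 was free of overlap for A-CREB, against 6.82%. Overlap takes no account of the pool numbers, and deviations of same-numbered A-CREB pools correlated at -0.05, 0.41 and 0.27.

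**Figure D5:**
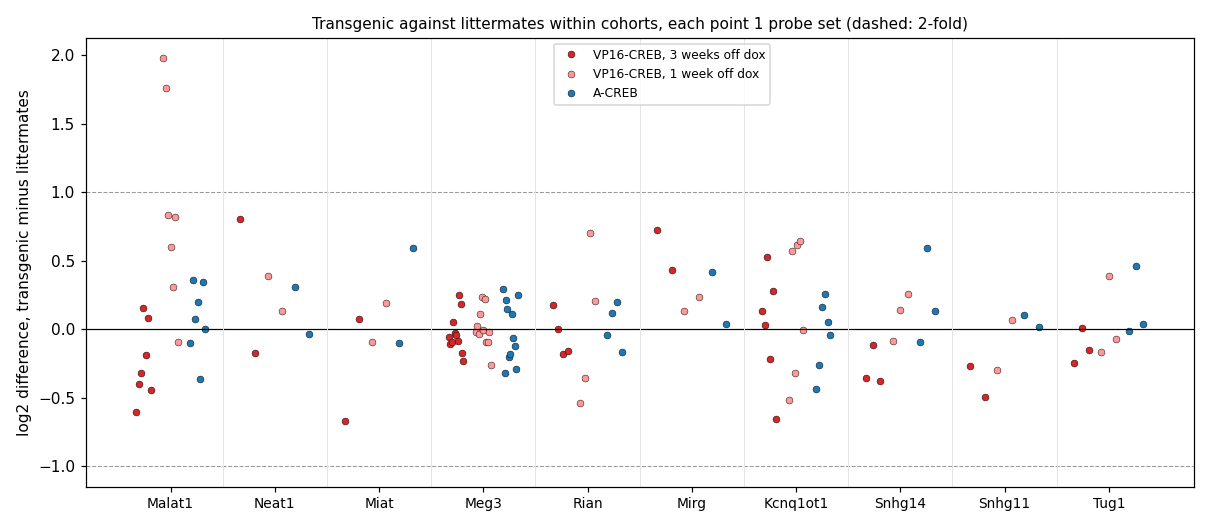
Log2 difference between transgenic mice and control littermates of the same cohort for each of the 42 probe sets, by gene. Points are probe sets, colours the 3 comparisons, and dashed lines mark 2-fold. Only 2 Malat1 sets at 1 week off dox lie beyond 2-fold.

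Malat1 had the lowest adjusted p of the members. At 1 week, 1438403_s_at was at 575 ± 15.6 (SD, n = 2) in VP16-CREB pools and 142 ± 48.8 (n = 2) in controls, a log2 difference of 1.98 (SE 0.42, limma adjusted p = 0.093), higher in 2 of 2 pools. In this comparison 1 of 5 astrocyte markers rose (Gfap, 1.80 log2, limma adjusted p = 0.0229; summed level 27930 to 34180 against 21610 to 21800). Microglia markers had a median of 0.94 with none of 7 called (17830 to 21280 against 9702 to 14920), and their part was not tested. The sets 1418189_s_at (1.76, adjusted p = 0.75) and 1418188_a_at (0.83, adjusted p = 1) were also free of overlap and higher, and the other 4 overlapped (-0.09 to 0.82). At 3 weeks the same 3 sets were lower without overlap, by -0.60 (SE 0.34, adjusted p = 0.517), -0.40 and -0.32 log2. The other 4 overlapped there too (-0.44 to 0.16), and 2 of them were higher. Of all tested probe sets, 28.6% did not overlap at 1 week and 27.6% at 3 weeks, and the 7 Malat1 sets read 1 gene. Subtracting the 1 week effect from the 3 week effect gave -2.58 for 1438403_s_at (SE 0.54, adjusted p = 0.202), and no member was called in that contrast, in which 0.0037% of all probe sets were. With trend and robust variances in limma, 1438403_s_at passed at 1 week (adjusted p = 0.0424). Over all settings tried its difference at 1 week ran from 1.65 to 2.31, and its adjusted p from 0.0424 to 0.473. For A-CREB the 7 Malat1 sets differed by -0.36 to 0.36, and all overlapped.

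Neat1 1428083_at had the lowest adjusted p at 3 weeks. It was at 1113 ± 61.2 (n = 3) in VP16-CREB pools and 644 ± 146 (n = 3) in controls, a log2 difference of 0.80 (SE 0.28, limma adjusted p = 0.171), higher in 3 of 3 pools. Over the settings tried it ran from 0.62 to 0.95, with adjusted p of 0.0344 to 0.503. The other Neat1 set differed by -0.17. In the same comparison all 7 microglia markers rose (median 2.28 log2, summed level 38690 to 45400 against 9860 to 10240 in controls), 2 of 5 astrocyte markers rose, and 5 of 6 dentate granule markers fell (median -1.59, 1217 to 1506 against 3629 to 3892). Their part in the Neat1 values was not tested. At 1 week and for A-CREB the Neat1 set differed by 0.39 and 0.31 (adjusted p = 1 for both) with overlap.

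Miat and Snhg11 were the other members with an unadjusted p under 0.05 at 3 weeks, both lower in VP16-CREB pools. Miat 1455325_at was at 2332 ± 380 (n = 3) against 3717 ± 641 (n = 3), -0.67 log2 (SE 0.25, limma adjusted p = 0.22), lower in 3 of 3 pools. Snhg11 1437311_at was at 3473 ± 76.0 against 4923 ± 469, -0.50 log2 (SE 0.20, limma adjusted p = 0.275), also lower in 3 of 3. The second set of each gene overlapped between groups (0.08 and -0.27). In the other 2 comparisons these sets differed by -0.10 to 0.07, and the contrasts between comparisons called neither. At 3 weeks neuron markers had a median of -0.20 with none of 5 called. Pyramidal markers had a median of -0.54, with 1 of 5 lower (Nptx1, -0.74, limma adjusted p = 0.0287). Their summed levels were 14930 to 15300 against 19850 to 21960, beside the 5 of 6 dentate granule markers that fell. Of the interneuron markers 1 of 5 was called higher (Slc32a1, 1.23, limma adjusted p = 3.34e-05) and none lower, with a median of 0.18. The part of these marker lists in the Miat and Snhg11 values was not tested.

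Among the imprinted RNAs, Mirg was higher in VP16-CREB pools at 3 weeks at both sets without overlap, by 0.72 (SE 0.49, adjusted p = 0.631) and 0.43 log2 (SE 0.27, adjusted p = 0.587). In the same comparison the 11 Meg3 sets differed by -0.23 to 0.25 and the 4 Rian sets by -0.18 to 0.18, with adjusted p of 0.769 or more. At 1 week Meg3 differed by -0.27 to 0.23, and Rian by -0.54 to 0.70 with opposite signs among its sets; 1428055_at (0.70, SE 0.32) had an adjusted p of 0.927. For A-CREB the ranges were -0.32 to 0.29 for Meg3, -0.17 to 0.20 for Rian and 0.03 to 0.41 for Mirg. The SE of the Meg3 sets was 0.21 to 0.42 at 3 weeks.

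Kcnq1ot1 differed by -0.65 to 0.53 over its 6 sets at 3 weeks, -0.51 to 0.64 at 1 week and -0.44 to 0.25 for A-CREB. Snhg14 ranged from -0.38 to -0.11 at 3 weeks, where 1436964_at was lower without overlap (-0.36, SE 0.34, adjusted p = 0.786), and from -0.09 to 0.59 for A-CREB. Tug1 1415708_at was lower at 3 weeks without overlap (-0.25, SE 0.16, adjusted p = 0.617). No Tug1 set passed in any comparison. The contrast of the VP16-CREB effect at 3 weeks with the A-CREB effect called no member either (-0.76 to 0.57), where 0.887% of all probe sets were called.

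The lists around the members held 1 call under the transgenes. None of the 14 paraspeckle proteins, 25 speckle and SR factors or 35 other long noncoding RNAs was called in any of the 3 comparisons, with medians between -0.10 and 0.21. Of the 11 imprinted neighbours, Dlk1, the paternally expressed gene beside Meg3, fell at 1 week: it read 374 and 269 in controls and 116 and 77.1 in VP16-CREB pools (-1.64 log2, SE 0.30, limma adjusted p = 0.0498). The call held in 3 of 12 other settings and was lost with each pool left out, with no pseudocount, with no filter, with quantile normalization, with a replicate block (adjusted p = 0.149) and with only the arrays compared (adjusted p = 0.361). The difference ran from -1.91 to -1.37 with adjusted p of 0.0423 to 0.361. At 3 weeks it read 117, 174 and 130 in controls and 116, 93.2 and 142 in VP16-CREB pools (-0.24, adjusted p = 0.81). No other imprinted neighbour was called.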

How the data were processed

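Hippocampal RNA pools were hybridised to Affymetrix Mouse Genome 430 2.0 arrays. The deposited values are linear intensities that the authors computed with MAS5, per the submitters' processing notes (no version given). The mean of every array without the outer 2% at each end was 500. MAS5 makes low intensities noisy, and the number of arrays limits the precision.

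Without the 64 control probe sets, the log2 of each intensity plus a pseudocount of 10 was used, and probe sets above the median of all values (99.1) on at least 2 arrays were tested (27044, 60.0% of 45037). Of the 45037, 34945 had 1 symbol in the platform annotation, 932 several and 9160 none. One limma model held all 16 arrays with a coefficient per group (10 residual and 3.44 prior degrees of freedom), with lmFit, eBayes, two-sided tests and Benjamini-Hochberg adjustment over the 27044, and calls at an adjusted p under 0.05. Folds are of the intensity plus 10, which understates the change of dim probe sets. Cohort differences are described at 2-fold without a test.

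The members and lists were chosen with earlier results of these data known. Shown array by array are each gene's brightest probe set (by its mean) and those with the largest and smallest cohort difference; lists rest on the brightest probe set of a gene. The lists were paraspeckle proteins, speckle and SR factors, imprinted neighbours, other long noncoding RNAs and 9 sets of cell type markers. Alternatives were the pseudocount, the filter, scaling, arrays in the fit, trend and robust variances, the replicate number as a block, and leaving out arrays in turn. The methods were tested on simulated data. Tools were R 4.3.3, limma 3.58.1, data.table (version 1.17.8), Python 3.11.15 and matplotlib 3.10.9. Positions and promoters are from RefSeq (GRCm38.p6).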

Additional observations from a re-analysis of the deposited data

How the results depend on the processing

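Calls of members changed under 2 settings. At 3 weeks a replicate block called 1 member, Neat1 1428083_at (0.80, adjusted p = 0.0344), and at 1 week trend and robust variances called 1, Malat1 1438403_s_at; no array left out gave a call of a member. Deviations of same-numbered pools correlated at -0.16, -0.23 and 0.22 at 3 weeks, 0.15 at 1 week and -0.05, 0.41 and 0.27 in the A-CREB cohort, so that not every pair exceeded 0.1 at 3 weeks or with A-CREB; the A-CREB pools numbered 1 share low Xist (34.5 and 63.4) and those numbered 3 a high 18S signal. For all probe sets, the 1062 called at 3 weeks became 584 to 854 with 1 array left out. The 64 at 1 week became 32 with no filter, 0 with only the arrays compared, 23 with the replicate block and 16 to 45 with 1 array left out, where the spread of a lone pool is taken from the other groups. For A-CREB 0 became 3 without a pseudocount, 2 with a pseudocount of 25, 0 to 4 with 1 array left out and 7 without both pools numbered 3, a setting chosen after seeing the data. The 240 called in the contrast of VP16-CREB at 3 weeks with A-CREB became 138 with no filter, 144 with the replicate block and 114 to 218 with 1 array left out. The 1 called between 3 weeks and 1 week became 2 without a pseudocount, 21 with quantile normalization, 9 with only the arrays compared, and 0 with a pseudocount of 25, no filter, arrays centred on their median or the replicate block, and 0 to 5 with 1 array left out. The causes were not tested. Centring arrays on their median took the members' median cohort difference from 2.64 to 2.11 (A-CREB controls) and from 2.56 to 2.02 (1 week controls). With 1 control array left out these medians ran from 2.53 to 2.81 and from 2.27 to 2.87. Of the 13 member probe sets followed through all settings, uncalled differences changed sign in 4 of 182 values at 3 weeks, 18 of 156 at 1 week and 24 of 195 for A-CREB; 1 of these exceeded its SE in the main setting, Neat1 1428083_at at 1 week (0.39, and -0.02 without VP16-CREB replicate 2).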
